A study of Mus musculus with 32 samples.

Results

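Lgr5-eGFP-high intestinal stem cells were compared with Lgr5-eGFP-low progenitors, both sorted from wild-type mice on a control diet. The comparison used 8 of the 32 RNA libraries of the series, 4 of stem cells and 4 of progenitors, chosen by the cell population, genotype and diet in their labels. Both groups came from C57BL6 mice of the genotype Villin-CreER; Lgr5-GFP-IRES-CreER, fed the diet labelled High Fat Control. Wild type therefore means that Cpt1a was intact, while the 2 Cre drivers were present in every group. Villin-CreER acts in the intestinal epithelium, and Lgr5-GFP-IRES-CreER marks cells that use the Lgr5 locus, in a line known to show the reporter in only a part of the crypts. By their labels, 2 libraries of each group came from females and 2 from males, and the age of the mice is not given in the sources used here. Both populations were gated as EpCAM-positive, CD24-low or negative, and negative for CD31, Ter119, CD45 and the dead-cell dye 7AAD, so the level of GFP was what parted them. The other 24 libraries, from mice on a high-fat diet or with floxed Cpt1a (Cpt1afl/fl) beside the same 2 drivers, shared the estimate of spread and gave 3 further comparisons of the same kind.

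Crypt base columnar stem cells sit between Paneth cells and divide into progenitors that keep dividing while they choose an absorptive or a secretory fate. Wnt and R-spondin signals hold cells in the stem state, with Lgr5 as a receptor for R-spondin, and Notch signals stop them from turning on Atoh1, the switch to goblet, Paneth, enteroendocrine and tuft cells. Young daughter cells keep some Lgr5-driven GFP, which is why the low-GFP gate is used to collect progenitors.

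The 8 libraries held between 3307711 and 6024170 estimated read counts. Replicates correlated at 0.965 to 0.974 among stem cells and at 0.964 to 0.975 among progenitors in log2 level, against 0.891 to 0.929 between the populations. Levels below are counts per 1000000 after edgeR's TMM scaling (CPM), and the libraries of each group are called a to d. Lgr5 (ENSMUSG00000020140; GRCm38 chromosome 10, 115450311 to 115587780) had 434, 468, 438 and 470 CPM in stem cells, against 30.4, 41.9, 17.0 and 24.9 CPM in progenitors. The gate used this gene's locus, so its log2 fold change of 3.96 ± 0.42 (SE) checks the sort and is not a finding. Olfm4, a secreted glycoprotein of crypt base cells that the gate did not use, had 12070, 10110, 12580 and 13080 CPM in stem cells, against 3296, 2632, 2029 and 2403 CPM in progenitors. Its log2 fold change was 2.21 ± 0.22 (edgeR's quasi-likelihood test with Benjamini-Hochberg adjustment over all genes tested, adjusted p = 7.07e-09), and every stem cell library lay above every progenitor library. Epcam was high in both populations, at 2152 to 2274 CPM in stem cells and 2401 to 2762 CPM in progenitors, and Cd24a lay at 223 to 282 CPM in stem cells and 256 to 296 CPM in progenitors.

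Defining markers of sorted-out cells were low. Summed over 6 white blood cell markers, stem cell libraries held 11.0 to 13.9 CPM and progenitor libraries 19.5 to 35.3 CPM, nearly all of it Itgam. Ptprc, which encodes CD45, reached 0.187 CPM in stem cells and was at 0 in progenitors, and Cd3e was at 0 in all 8. The 6 stroma markers summed to at most 0.714 CPM in stem cells and 5.55 CPM in progenitors, with Col1a1, Col1a2 and Pdgfra at 0 in all 8. The 4 endothelial markers reached at most 0.187 CPM in stem cells and 0.979 CPM in progenitors. For red blood cells the 3 markers summed to at most 0.613 CPM in stem cells and to 0 in progenitors. Wider lists gave more. Over 26 white blood cell genes the sum was 144 to 186 CPM in stem cells and 79.5 to 87.9 CPM in progenitors, nearly all of it Itgam and Lcp1, an actin-bundling protein, and over 21 stroma, vessel and nerve genes it was 24.8 to 30.0 CPM in stem cells and 13.2 to 17.3 CPM in progenitors, with Esam the main part of it in stem cells. Their part in the results below was not tested.

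Across the 13088 genes with enough reads to test, of 50686 in the table, the populations differed at 5414, or 41.4%. Of these, 2532 were higher in stem cells (19.3% of genes tested) and 2882 were lower (22.0%). Counts of list members below are to be read beside these shares. The members were chosen with earlier results of these data known, so the counts describe the lists and do not test them. The median log2 fold change over all genes was 0.02 and the median SE 0.16. The deposited log2 TPM values, tested with limma, moved that median to 0.28 and the split to 5049 higher and 1430 lower. That setting changed the values, the scaling and the test together, so small changes that many genes share depend on the setting. Which of these moved them was not tested. With DESeq2-style scaling in edgeR the split was 2530 higher and 2878 lower. A stricter question, whether the change went beyond 2-fold, was answered yes for 711 genes (5.43%), 204 of them higher (1.56%) and 507 lower (3.87%). In 38.1% of all genes the libraries of the 2 populations did not overlap, with stem cells above in 17.6% and below in 20.5%. Nothing in the labels says that the libraries of a group come from separate animals, so the p-values measure the spread between these samples. In bulk RNA, fewer cells of a type and less RNA per cell cannot be told apart, and this holds for every result below.

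**Figure D1:**
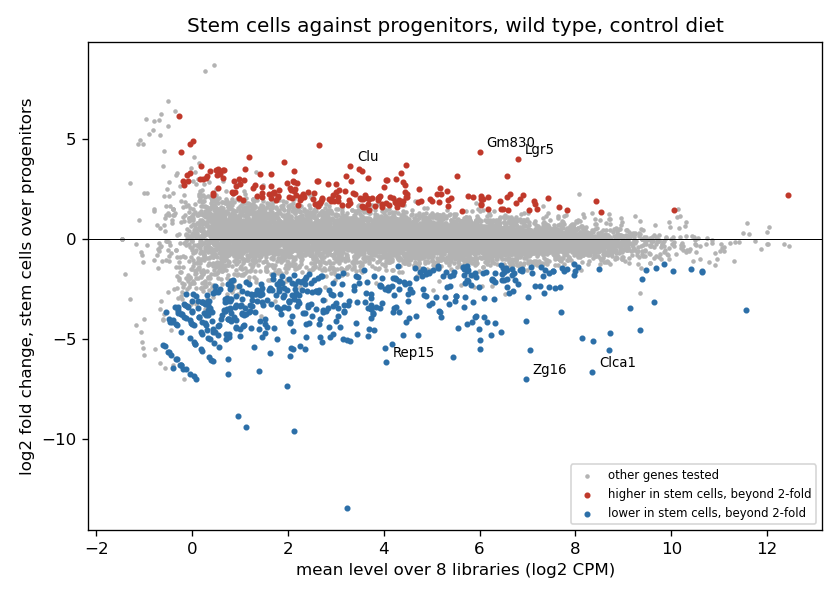
Log2 fold change of stem cells over progenitors (vertical) against the mean level over the 8 libraries in log2 CPM (horizontal, log scale) for the 13088 genes tested. Coloured points are the 204 genes higher and the 507 genes lower beyond 2-fold. Lgr5, Gm830 and Clu are labelled among the higher genes and Clca1, Zg16 and Rep15 among the lower ones.

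Genes of the stem cell state were higher together. Of 42 tested genes on a list of crypt base stem cell genes, 36 rose in stem cells, 1 fell and 5 did not pass, against 19.3% higher and 22.0% lower among all genes. The list's median log2 fold change was 1.50, against 0.02 for all genes, and 20 members were more than 2-fold higher. Lgr5, whose locus set the gate, is counted among the 36, in the sum below and among the Wnt genes that rose. Their summed level was 25740 to 29250 CPM in stem cells and 8535 to 10610 CPM in progenitors. Smoc2, a matricellular protein, had 1792, 1828, 1666 and 1754 CPM in stem cells, against 706, 689, 566 and 616 CPM in progenitors (log2 fold change 1.45 ± 0.12, adjusted p = 1.34e-10). Soat1, which esterifies cholesterol, had 793, 625, 669 and 609 CPM in stem cells, against 192, 197, 190 and 143 CPM in progenitors (1.90 ± 0.18, adjusted p = 2.20e-09). In both genes the ranges stood apart. The potassium channel gene Kcnq1 was higher by 1.22 ± 0.12. Etv5, an ETS factor that responds to growth factors, was the only member that fell, by 0.82 ± 0.21 (adjusted p = 0.00261), and its libraries overlapped.

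The largest rises, among genes with a mean of at least 3 on the log2 CPM scale and no overlap between libraries, included genes outside that list. Gm830 (GRCm38 chromosome 4, 95464724 to 95487394, annotated as a processed transcript) led all of them. It had 340, 281, 340 and 251 CPM in stem cells, against 18.2, 23.1, 9.14 and 7.84 CPM in progenitors, a log2 fold change of 4.32 ± 0.49 (adjusted p = 1.37e-07). Clu, the secreted chaperone clusterin, had 29.6, 47.2, 29.1 and 34.7 CPM in stem cells, against 1.41, 4.37, 1.31 and 3.92 CPM in progenitors (3.62 ± 0.56, adjusted p = 1.02e-05). Jun, a subunit of the AP-1 transcription factor, had 390, 236, 234 and 286 CPM in stem cells, against 38.2, 34.6, 25.1 and 33.0 CPM in progenitors (3.11 ± 0.31). None of these ranges overlapped, because the lack of overlap was a condition for choosing these genes. The other 12 of the 15 largest rises were Lgr5, Ccdc3, A930009A15Rik, Fam20c, Gramd1a, Tnfrsf19, Cbs, Extl1, Pcdh8, Fstl1, Pik3ap1 and Fam43a, with log2 fold changes down to 2.88.

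Wnt signalling genes gave a mixed picture with most changes upward. Of 40 tested ligands, receptors, feedback regulators and targets, 21 rose, 6 fell and 13 did not pass, with a median log2 fold change of 0.55. Receptors and their partners came first. Fzd1, Fzd2, Fzd6 and Fzd7, Frizzled receptors for Wnt, rose by log2 fold changes of 0.75 to 1.43, while Fzd5 fell by 1.03 ± 0.18 and Fzd9 by 1.29 ± 0.50. Lrp5, Lrp6 and Lgr4, co-receptors for Wnt and R-spondin, had log2 fold changes of 0.09 ± 0.23, 0.12 ± 0.16 and 0.38 ± 0.20 and did not pass.

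Feedback inhibitors and targets came next. Rnf43, a ubiquitin ligase that removes Wnt receptors, had 278, 243, 275 and 261 CPM in stem cells, against 99.4, 80.6, 65.9 and 65.5 CPM in progenitors (1.76 ± 0.20, adjusted p = 5.29e-08). Axin2, part of the beta-catenin destruction complex, had 14.4, 20.5, 17.7 and 19.8 CPM in stem cells, against 5.65, 7.10, 4.24 and 3.23 CPM in progenitors (1.80 ± 0.25). The target genes Sp5, a zinc finger factor, and Tnfrsf19, a receptor also called Troy, differed more. Sp5 had 45.8, 29.6, 41.6 and 39.4 CPM in stem cells, against 8.30, 6.37, 5.88 and 5.08 CPM in progenitors (2.58 ± 0.25, adjusted p = 1.79e-09). Tnfrsf19 had 133, 121, 149 and 144 CPM in stem cells, against 18.5, 12.2, 15.3 and 16.2 CPM in progenitors (3.13 ± 0.29, adjusted p = 2.38e-09). Stem cell libraries of all 4 genes lay above the progenitor libraries.

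Further rises were those of Nkd1, an inhibitor of Dishevelled (2.89 ± 0.41), Lef1, a partner of beta-catenin (3.47 ± 0.53), Ascl2, a stem cell transcription factor (1.74 ± 0.26), Sox9 (1.43 ± 0.18), Cd44 (1.79 ± 0.35) and Myc (0.76 ± 0.13). Tcf7 rose by 1.18 ± 0.18 and Tcf7l1 fell by 1.93 ± 0.64, while Tcf7l2, the main intestinal factor of that family, did not pass at 0.24 ± 0.15. Tcf7l1 was low in both populations, at 0 to 0.459 CPM in stem cells and 0.653 to 1.64 CPM in progenitors. Lef1 had 4.38 to 6.89 CPM in stem cells and only 0.231 to 0.728 CPM in progenitors. The ligand gene Wnt3, which Paneth cells express, fell by 1.45 ± 0.33 (adjusted p = 0.000762). The target genes Bambi, a decoy receptor of the TGF-beta family, and Prox1, a homeobox factor, fell as well, by 1.18 ± 0.26 (adjusted p = 0.000426) and 1.32 ± 0.45 (adjusted p = 0.0188). Znrf3, the ligase related to Rnf43, did not pass at 0.99 ± 0.47 (adjusted p = 0.0909), nor did Kremen1 and Zfp703 at -0.16 ± 0.15 and 0.18 ± 0.23. With each stem cell column and the progenitor column after it as a replicate block, Znrf3 and Lgr4 passed (adjusted p = 0.00421 and 0.0185). Znrf3 also passed without stem cell library a or progenitor library d (0.0354 and 0.0334), as did Lgr4 without stem cell library a (0.0352). Fzd1 did not pass without progenitor library a (adjusted p = 0.0578), nor Tcf7l1 without stem cell library a or progenitor library b (up to 0.0551), nor Prox1 without stem cell library d or progenitor library c (up to 0.0943). Fzd9 did not pass without stem cell library a, b or d or progenitor library b or c (up to 0.129). Ccnd1, often listed as a Wnt target, had 46.3 to 59.8 CPM in stem cells and 38.1 to 67.3 CPM in progenitors and did not pass.

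The promoters of Sp5 and Tnfrsf19 are shown because both hold the letters CTTTGAT, the core that TCF and LEF factors are known to bind, within 250 bases before to 50 bases after the start. Of 28 Wnt list genes with a promoter in the RefSeq table (build GRCm38.p6), 4 held these letters on either strand, namely Sp5, Tnfrsf19, Wnt11 and Tiam1, against 4.29% of all 27025 gene symbols with a promoter. The sequences run 5′ to 3′ along the gene with the matched letters in capitals. Sp5 lies on the plus strand at chr2:70474673-70474972 and its match begins at position -104 from the start. Tnfrsf19 lies on the minus strand at chr14:61037938-61038237 and its match, read on the opposite strand, begins at position -202. The RefSeq table gives 2 promoters for Tnfrsf19, and the one shown is the one with the match.
Sp5: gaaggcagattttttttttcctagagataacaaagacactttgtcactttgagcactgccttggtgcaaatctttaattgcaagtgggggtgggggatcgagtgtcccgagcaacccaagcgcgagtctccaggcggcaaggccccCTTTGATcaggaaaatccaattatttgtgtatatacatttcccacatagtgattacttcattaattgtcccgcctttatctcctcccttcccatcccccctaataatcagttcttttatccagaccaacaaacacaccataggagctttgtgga
Tnfrsf19: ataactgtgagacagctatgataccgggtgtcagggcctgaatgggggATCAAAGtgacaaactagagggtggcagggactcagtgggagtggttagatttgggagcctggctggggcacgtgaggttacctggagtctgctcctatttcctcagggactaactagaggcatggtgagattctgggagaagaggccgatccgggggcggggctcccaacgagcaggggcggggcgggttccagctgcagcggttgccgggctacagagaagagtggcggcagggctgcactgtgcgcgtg
A match describes these letters and does not show that a factor binds there.

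Other signals of the niche followed. Of 12 tested Eph receptors and ephrins, which sort cells along the crypt axis, 7 rose (58.3%) and 1 fell (8.33%). Among all genes 19.3% were higher and 22.0% lower. Ephb3 had 155, 144, 146 and 160 CPM in stem cells, against 35.9, 45.1, 34.6 and 23.8 CPM in progenitors (2.11 ± 0.23, adjusted p = 2.33e-08). The ligand gene Efnb2 had 2.55, 3.52, 2.68 and 5.04 CPM in stem cells, against 12.5, 11.5, 20.9 and 19.8 CPM in progenitors, and fell by 2.21 ± 0.28 (adjusted p = 2.81e-07). Efnb2 was the only member that fell, and the ligand genes Efna1 and Efna4 rose with the receptors, Efna1 by a log2 fold change of 0.87 ± 0.13 and Efna4 by 2.46-fold (adjusted p = 5.71e-07).

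BMP signalling, which opposes the stem state, showed 7 genes higher and 6 lower of 23 tested, or 30.4% and 26.1%, against 19.3% and 22.0% of all genes. Rgmb, a BMP co-receptor, had 368, 361, 327 and 349 CPM in stem cells, against 100, 100, 77.4 and 66.0 CPM in progenitors (2.03 ± 0.23, adjusted p = 5.80e-08). Fstl1, a secreted BMP antagonist, rose by 2.93 ± 0.25. The BMP target genes Id2, Id3 and Id4 fell by 1.05 ± 0.20, 1.24 ± 0.23 and 4.39 ± 0.43. Id1, the classical target, had 44.3 to 47.4 CPM in stem cells and 54.2 to 65.6 CPM in progenitors, and its log2 fold change of -0.36 ± 0.18 did not pass, although it did in the fit of the 8 libraries alone and with the replicate block (adjusted p = 0.011 and 0.0103). The receptor genes Bmpr1a and Bmpr2 did not pass, at 0.13 ± 0.10 and -0.04 ± 0.24.

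Among 25 tested genes of EGF and related receptor signalling, 11 rose and 4 fell. Lrig1, a brake on EGF receptors, had 281, 332, 265 and 307 CPM in stem cells, against 143, 147, 134 and 111 CPM in progenitors (1.15 ± 0.15, adjusted p = 3.06e-07). Fgfr4, a receptor for fibroblast growth factors, rose by 2.09 ± 0.28. The receptor genes Erbb2 and Erbb3 rose by 0.37 ± 0.10 and 0.74 ± 0.17, while Egfr did not pass at 0.20 ± 0.12. The ligand genes split: Btc and Nrg4 rose by 0.85 ± 0.15 and 1.37 ± 0.25, and Egf fell by 2.24 ± 0.44. Kit, the stem cell factor receptor that deep crypt secretory cells carry, had 26.3, 27.4, 57.5 and 39.9 CPM in stem cells, against 95.5, 107, 170 and 90.2 CPM in progenitors (-1.61 ± 0.29, adjusted p = 6.93e-05). An antibody to Kit was in the stain but not in the gate.

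**Figure D2:**
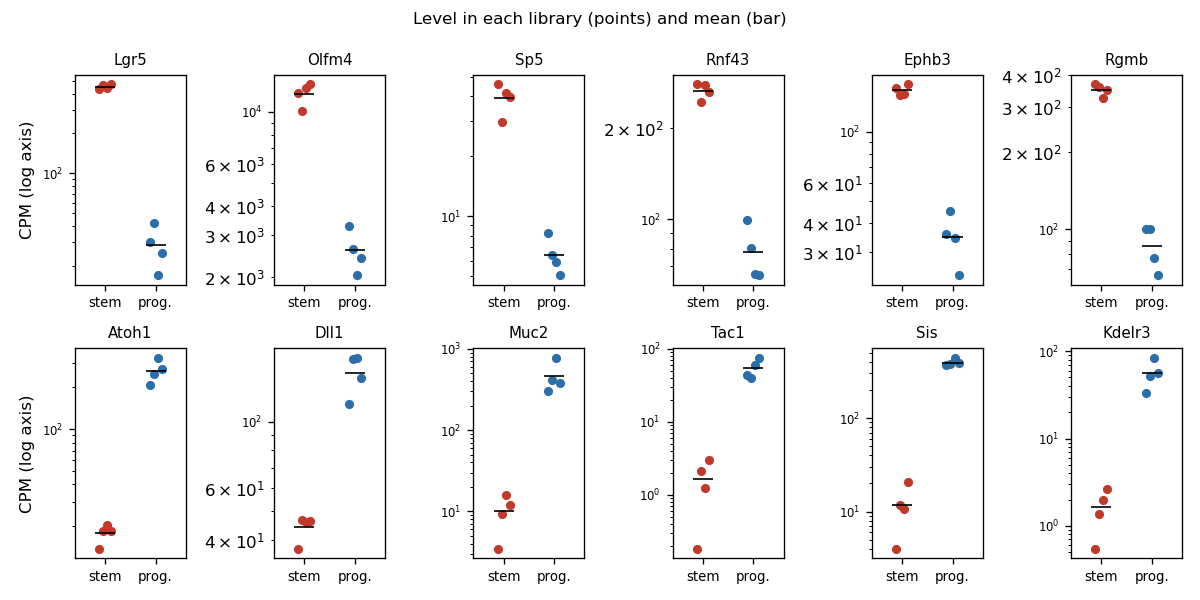
CPM of 12 genes in each library on a log axis, stem cells (left) and progenitors (right) in each panel, with a point per library and a bar at the mean. The upper row (Lgr5, Olfm4, Sp5, Rnf43, Ephb3 and Rgmb) is higher in all 4 stem cell libraries, and the lower row (Atoh1, Dll1, Muc2, Tac1, Sis and Kdelr3) is lower in all 4.

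Notch pathway genes were split by role. Of 22 tested, 3 rose (13.6%), 7 fell (31.8%) and 12 did not pass, against 19.3% higher and 22.0% lower among all genes. With limma on log2 TPM 6 were higher and 3 lower. The receptor gene Notch1 had 19.3, 24.5, 26.8 and 20.5 CPM in stem cells, against 10.4, 8.01, 8.49 and 6.69 CPM in progenitors (1.43 ± 0.25, adjusted p = 2.69e-05). Hes1, the target through which Notch represses Atoh1, had 216, 171, 160 and 132 CPM in stem cells, against 97.8, 100, 75.1 and 81.7 CPM in progenitors (0.93 ± 0.15, adjusted p = 1.31e-05). Both were higher in every stem cell library. The ligands went the other way. Dll1 had 37.4, 46.9, 46.1 and 46.3 CPM in stem cells, against 114, 163, 164 and 140 CPM in progenitors (-1.71 ± 0.14, adjusted p = 8.27e-11), and Dll4 fell by 2.18 ± 0.22. Rbpj, the DNA-binding partner of Notch, rose by 0.60 ± 0.15, while Nrarp, a target that limits the signal, did not pass at 0.29 ± 0.18.

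Transcription factors of the secretory lineages were mostly lower. Of 33 tested, 23 fell, 2 rose and 8 did not pass. The median log2 fold change was -3.12, or -3.11 with Myt1, which had no count in any stem cell library, set at its detection limit. Atoh1 (ENSMUSG00000073043; GRCm38 chromosome 6, 64729125 to 64731245) had 13.7, 18.5, 20.4 and 18.5 CPM in stem cells, against 207, 250, 326 and 271 CPM in progenitors (-3.89 ± 0.23, adjusted p = 7.58e-13). Its partner in goblet and Paneth fate, Gfi1, had 0.306 to 0.730 CPM in stem cells and 10.6 to 17.0 CPM in progenitors (-5.00 ± 0.46). Both ranges stood far apart. Spdef, which matures goblet and Paneth cells, fell by 4.47 ± 0.35, and Creb3l1 and Bhlha15, factors of the secretory machinery, fell by 2.85 ± 0.26 and 3.51 ± 0.32. Neurog3, which commits cells to the endocrine lineage, had 0.547 to 2.14 CPM in stem cells and 9.46 to 12.5 CPM in progenitors (-3.02 ± 0.36). The 2 that rose were Sox4 (1.46 ± 0.19, adjusted p = 4.04e-07), with 202 to 244 CPM in stem cells and 71.2 to 84.3 CPM in progenitors, and Cbfa2t2, a corepressor (0.41 ± 0.14, adjusted p = 0.0179). Cbfa2t2 did not pass without stem cell library a or progenitor library d (adjusted p up to 0.104). Foxa1 and Foxa2, pioneer factors used in secretory cells, did not pass.

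The products of those lineages were lower as well. Of 37 tested goblet cell genes 36 fell, 32 of them beyond 2-fold, and their median was -4.18. Their summed level was 1817 to 2580 CPM in stem cells and 17880 to 31730 CPM in progenitors. Muc2, the main secreted mucin, had 3.47, 9.34, 15.9 and 12.1 CPM in stem cells, against 302, 415, 772 and 383 CPM in progenitors (-5.51 ± 0.40, adjusted p = 5.19e-11). Clca1, a mucus-processing protein, had 19.0, 20.5, 32.3 and 72.2 CPM in stem cells, against 2906, 2555, 4687 and 3952 CPM in progenitors (-6.62 ± 0.58, adjusted p = 1.96e-09). No progenitor library came within reach of a stem cell library in either gene. Zg16, Rep15, Fcgbp and Tff3, also goblet cell genes, fell by 6.97 ± 0.74, 6.16 ± 0.29, 5.55 ± 0.45 and 5.09 ± 0.30. Enzymes that build mucin sugar chains fell too, 23 of 28 tested with a median of -1.10 and none higher. Among them C1galt1c1, the chaperone of the core 1 enzyme, had 42.9 to 51.8 CPM in stem cells and 159 to 231 CPM in progenitors (-2.01 ± 0.15), and St3gal4, a sialyltransferase, fell by 4.50 ± 0.41.

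Paneth cell genes fell for 20 of 28 tested, with a median of -2.60, and none rose. Their summed level ran from 675 to 4688 CPM in stem cells and from 8213 to 19910 CPM in progenitors, so the libraries of 1 population differed among themselves by more than they did for goblet genes. With each stem cell column paired with the progenitor column after it as a replicate block, 10 of the 28 passed. Mptx1, a mucosal pentraxin, had 0.179 to 0.933 CPM in stem cells and 16.7 to 26.6 CPM in progenitors (-5.44 ± 0.57, adjusted p = 1.61e-08). Mmp7, which activates defensins, had 41.6, 45.6, 70.9 and 35.6 CPM in stem cells, against 278, 432, 474 and 261 CPM in progenitors (-2.90 ± 0.36, adjusted p = 5.33e-07). Defensin genes are near-identical copies whose reads the counting could have split, so their single values are uncertain and are not given.

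Enteroendocrine genes fell for 43 of 49 tested, 38 beyond 2-fold, and 3 rose. The median was -3.92, or -3.67 with the 7 members that had no count in any stem cell library set at their detection limits. Gcg (ENSMUSG00000000394; GRCm38 chromosome 2, 62474530 to 62483650), the glucagon gene of L cells, had no count in the 4 stem cell libraries, against 201, 292, 247 and 242 CPM in progenitors. That is at least 468-fold lower in stem cells, taking 3 counts per library as the limit a count of 0 allows. Tac1, which encodes substance P, had 0.182, 2.14, 1.25 and 2.98 CPM in stem cells, against 44.3, 39.5, 60.4 and 74.7 CPM in progenitors (-5.03 ± 0.44, adjusted p = 1.02e-09). Cck and Sct, hormone genes of cholecystokinin and secretin, fell by 7.32 ± 0.59 and 4.19 ± 0.29. The 3 that rose were Sox4, the calcium channel gene Cacna1a (1.08 ± 0.35, adjusted p = 0.0135) and Bex4 (2.25 ± 0.77, adjusted p = 0.0197). Cacna1a did not pass without progenitor library b or d, nor Bex4 without a or c (adjusted p up to 0.0545 and 0.0534). In the fit of the 8 libraries alone 28 members passed, and with the replicate block 29.

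Tuft cell genes fell for 12 of 24 tested and rose for 1, with a median of -1.06. Avil, an actin-binding protein of tuft cells, had 0.912 to 2.05 CPM in stem cells and 11.0 to 13.8 CPM in progenitors (-3.21 ± 0.34, adjusted p = 7.78e-09). Pou2f3, the factor that makes tuft cells, had 2.37 to 3.92 CPM in stem cells and 4.38 to 5.55 CPM in progenitors, and did not pass (-0.61 ± 0.27, adjusted p = 0.0742). The member that rose was Itpr2, a calcium release channel, by 0.93 ± 0.26.

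Absorptive genes were mostly lower. Of 67 tested enterocyte genes 42 fell, 3 rose and 22 did not pass, with a median of -1.33 and a summed level of 6549 to 8288 CPM in stem cells and 11590 to 17650 CPM in progenitors. Sis, the brush border enzyme sucrase-isomaltase, had 4.01, 11.8, 10.7 and 20.9 CPM in stem cells, against 368, 375, 438 and 383 CPM in progenitors (-5.04 ± 0.44, adjusted p = 1.94e-09). Krt20, a keratin of cells leaving the crypt, had 3.28, 6.74, 14.6 and 20.3 CPM in stem cells, against 147, 215, 318 and 296 CPM in progenitors (-4.45 ± 0.38, adjusted p = 1.26e-09). In each the progenitor libraries were all far above. Slc51a, a bile acid exporter subunit, and Slc7a9, an amino acid carrier, fell by 3.66 ± 0.32 and 2.52 ± 0.21. Vil1, whose promoter drives a Cre allele, differed little, at 204 to 246 CPM in stem cells and 291 to 315 CPM in progenitors (-0.40 ± 0.09). The 3 that rose were the brush border genes Mep1a (1.32 ± 0.21), Myo7b (0.84 ± 0.16) and Dpp4 (0.23 ± 0.07). Dpp4 did not pass without stem cell library c or progenitor library a (adjusted p up to 0.0825).

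**Figure D3:**
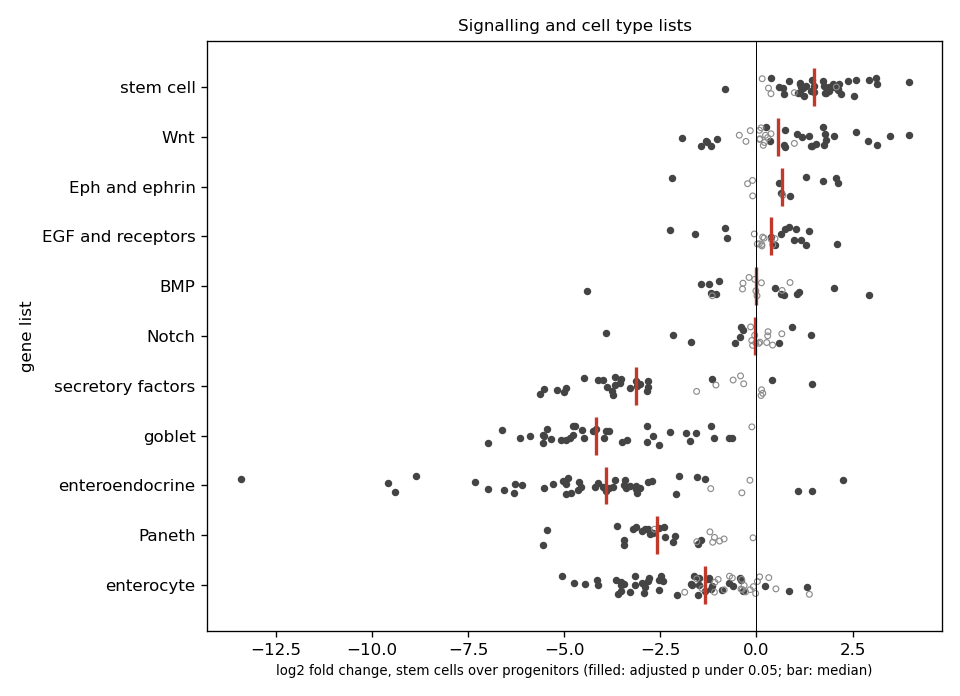
Log2 fold change of stem cells over progenitors (horizontal) for every tested member of 11 lists (rows), a point per gene, filled where the gene passed at an adjusted p of 0.05, with a bar at the list median. Stem cell genes centre at 1.50, while goblet, enteroendocrine and secretory factor lists centre at -4.18, -3.92 and -3.12.

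Genes of the endoplasmic reticulum and of protein secretion were lower nearly throughout. Of 84 tested, 76 fell, none rose and 8 did not pass, against 22.0% lower among all genes. The median was -0.81 and the summed level 16280 to 18860 CPM in stem cells and 28650 to 36370 CPM in progenitors. Dnajc10, a disulfide reductase of the reticulum, had 53.8, 71.7, 63.2 and 63.1 CPM in stem cells, against 253, 319, 407 and 318 CPM in progenitors (-2.36 ± 0.14, adjusted p = 1.71e-13). Ern2, the stress sensor of mucus-secreting cells, had 11.1, 21.1, 18.0 and 15.1 CPM in stem cells, against 158, 231, 332 and 220 CPM in progenitors (-3.83 ± 0.25, adjusted p = 2.66e-12). Kdelr3, a retrieval receptor, fell by 5.09 ± 0.36, and the folding enzymes Pdia5 and P4hb by 2.70 ± 0.20 and 1.25 ± 0.10. Xbp1, a transcription factor of the unfolded protein response, had 304, 265, 284 and 253 CPM in stem cells, against 565, 555, 781 and 571 CPM in progenitors (-1.16 ± 0.14, adjusted p = 7.90e-08). All of these were lower in every stem cell library. The goblet cell genes fell in the same libraries, and their part in the fall of the secretion genes was not tested.

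The endoplasmic reticulum stress element, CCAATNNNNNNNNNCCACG, was searched in the promoters because XBP1 and ATF6 are known to act through it. Of 70 genes on the list with a RefSeq promoter, 9 held it on either strand, against 0.137% of all 27025 symbols (37 of them). They were Hspa5, Hsp90b1, Calr, Canx, Pdia6, Dnajc3, Creld2, Syvn1 and Derl3, and 4 are shown here, picked after their values were seen. Hspa5, the chaperone BiP, had 1108, 990, 1002 and 763 CPM in stem cells, against 1822, 2160, 2498 and 1846 CPM in progenitors (-1.11 ± 0.17, adjusted p = 4.44e-06). Calr, calreticulin, had 318, 340, 322 and 301 CPM in stem cells, against 577, 631, 753 and 610 CPM in progenitors (-1.01 ± 0.14). Pdia6 and Creld2, a disulfide isomerase and its relative in folding, fell by 1.25 ± 0.13 and 1.34 ± 0.22. Of the other 5, Derl3 did not pass (-1.15 ± 0.56, under 3 CPM in every library, with an adjusted p of 0.0262 without progenitor library d) and 4 fell by 0.46 to 1.24, although Syvn1 did not pass without stem cell library b, c or d or progenitor library a, b or c (adjusted p up to 0.148). In the sequences, from GRCm38.p6, capitals mark the fixed letters of the element. They begin at position -65 from the start in Hspa5 (plus strand, chr2:34771840-34772139), -162 in Calr (minus strand, chr8:84846882-84847181), -98 in Pdia6 (plus strand, chr12:17266339-17266638) and -126 in Creld2 (plus strand, chr15:88819396-88819695), and in the 2 genes Calr and Creld2 the element reads on the opposite strand.
Hspa5: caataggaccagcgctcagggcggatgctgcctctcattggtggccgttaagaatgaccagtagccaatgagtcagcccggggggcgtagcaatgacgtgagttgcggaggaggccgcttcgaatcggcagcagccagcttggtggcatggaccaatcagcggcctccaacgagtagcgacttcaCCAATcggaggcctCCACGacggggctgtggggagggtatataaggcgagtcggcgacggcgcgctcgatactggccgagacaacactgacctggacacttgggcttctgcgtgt
Calr: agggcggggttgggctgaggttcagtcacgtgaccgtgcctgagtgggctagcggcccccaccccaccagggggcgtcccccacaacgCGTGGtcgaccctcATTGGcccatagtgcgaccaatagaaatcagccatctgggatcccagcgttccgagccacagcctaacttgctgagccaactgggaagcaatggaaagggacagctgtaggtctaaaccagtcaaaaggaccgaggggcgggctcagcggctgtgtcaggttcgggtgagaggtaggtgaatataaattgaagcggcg
Pdia6: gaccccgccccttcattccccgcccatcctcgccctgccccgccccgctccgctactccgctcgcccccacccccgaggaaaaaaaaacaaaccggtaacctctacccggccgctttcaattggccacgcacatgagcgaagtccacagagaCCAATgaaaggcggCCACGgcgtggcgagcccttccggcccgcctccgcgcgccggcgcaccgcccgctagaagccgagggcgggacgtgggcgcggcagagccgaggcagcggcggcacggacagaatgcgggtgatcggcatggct
Creld2: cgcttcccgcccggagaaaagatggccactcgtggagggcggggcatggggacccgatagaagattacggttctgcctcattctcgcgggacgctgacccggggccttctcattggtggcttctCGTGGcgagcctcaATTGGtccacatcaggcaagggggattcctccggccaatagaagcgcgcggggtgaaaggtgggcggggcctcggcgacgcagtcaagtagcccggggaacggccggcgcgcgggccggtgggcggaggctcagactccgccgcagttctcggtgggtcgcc
Letters alone do not show that a factor binds, and promoters without them say nothing about it.

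Sterol genes fell in the main. Of 36 tested, 22 fell and 4 rose, with a median of -0.82. Msmo1 and Lss are enzymes late in cholesterol synthesis. Msmo1 had 62.9, 93.3, 47.3 and 36.2 CPM in stem cells, against 160, 266, 177 and 187 CPM in progenitors (-1.72 ± 0.29, adjusted p = 3.37e-05). Lss had 35.2, 42.1, 26.6 and 23.7 CPM in stem cells, against 71.4, 130, 107 and 72.9 CPM in progenitors (-1.57 ± 0.22, adjusted p = 2.15e-06). Library b was the highest of its group in both populations for both genes. The 4 that rose are not synthesis enzymes. Soat1 (1.90 ± 0.18) esterifies cholesterol, Abca1 (2.20 ± 0.44) exports it, Npc1 (1.43 ± 0.31) moves it out of lysosomes, and Mylip (1.54 ± 0.38) degrades the LDL receptor. The sterol response letters TCACNCCAC stood in 1 of 26 list promoters, that of Hmgcs1, against 1.44% of all symbols. Hmgcs1, an early synthesis enzyme named here after its values were seen, had 114, 166, 93.7 and 87.3 CPM in stem cells, against 222, 335, 244 and 222 CPM in progenitors (-1.15 ± 0.20). Its promoter (plus strand, chr13:119690101-119690400, GRCm38.p6) holds the match from position -137, in capitals.
Hmgcs1: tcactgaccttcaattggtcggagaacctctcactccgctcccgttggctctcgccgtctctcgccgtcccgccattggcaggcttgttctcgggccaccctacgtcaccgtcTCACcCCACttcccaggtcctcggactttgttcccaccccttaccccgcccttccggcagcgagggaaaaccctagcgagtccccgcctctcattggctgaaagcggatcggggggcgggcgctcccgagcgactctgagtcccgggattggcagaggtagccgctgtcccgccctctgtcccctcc

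Nuclear genes of oxidative metabolism were lower by less than 2-fold. Complex I subunits fell for 33 of 36 tested, with a median of -0.54. Subunits of complexes II to V fell for 35 of 41, with a median of -0.62. In neither group did any member rise or pass beyond 2-fold. Uqcrfs1, the iron-sulfur subunit of complex III, had 292, 280, 269 and 263 CPM in stem cells, against 500, 527, 524 and 577 CPM in progenitors (-0.95 ± 0.12, adjusted p = 1.25e-07). Ndufa9 of complex I had 330, 287, 300 and 315 CPM in stem cells, against 466, 432, 489 and 569 CPM in progenitors (-0.67 ± 0.12, adjusted p = 4.66e-05). Mitochondrial ribosomal proteins fell for 51 of 77, with a median of -0.39 and none higher. On the log2 TPM scale, relative to the shift of all genes, the 3 medians were -0.51, -0.59 and -0.36, although before that shift was taken off the mitochondrial ribosome median was only -0.08. Fewer members passed there: 14 lower and 1 higher of complex I, 23 lower of complexes II to V, and 9 lower and 3 higher of the mitochondrial ribosome. These lists hold nuclear genes. Of 13 subunit genes encoded by the mitochondrial genome, with a median of -0.25, the only one that passed was mt-Nd1 of complex I, lower by 0.46 ± 0.16 (adjusted p = 0.0231, and up to 0.0893 without stem cell library a or progenitor library b).

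Tricarboxylic acid cycle genes fell for 20 of 27 tested, and with limma on log2 TPM 8 were lower and 1 higher. Citrate synthase, Cs, had 319, 357, 319 and 308 CPM in stem cells, against 602, 579, 574 and 572 CPM in progenitors (-0.84 ± 0.10, adjusted p = 1.20e-07). Mdh2, malate dehydrogenase, fell by 1.02 ± 0.14. The member that rose was Pck2, the mitochondrial enzyme that makes phosphoenolpyruvate, with 104, 107, 130 and 114 CPM in stem cells, against 71.0, 65.7, 56.5 and 64.8 CPM in progenitors (0.82 ± 0.10, adjusted p = 2.46e-07). Its ranges did not overlap.

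Glycolysis genes fell for 22 of 37 and rose for 5. Ldha, the lactate dehydrogenase subunit that favours lactate, had 832, 1028, 880 and 929 CPM in stem cells, against 2542, 2762, 2827 and 2983 CPM in progenitors (-1.60 ± 0.17, adjusted p = 9.54e-09). Ldhb, the other subunit, had 7.48, 7.50, 5.71 and 4.85 CPM in stem cells, against 2.47, 1.82, 2.61 and 1.38 CPM in progenitors (1.63 ± 0.43, adjusted p = 0.00307). The isozymes thus moved in opposite directions, with Ldha at the far higher level. Pfkp, platelet-type phosphofructokinase, fell by 2.58 ± 0.22. Hk2, the first enzyme, rose by 0.66 ± 0.14, and Aldoc, Pfkfb2 and Pdk2 rose by 0.82 ± 0.28, 0.54 ± 0.19 and 0.28 ± 0.11. Aldoc did not pass without stem cell library b or progenitor library a, nor Pfkfb2 without stem cell library c or progenitor library d (adjusted p up to 0.0712 and 0.116). Pdk2 did not pass without stem cell library a or d or progenitor library a or b (up to 0.136). Of 31 mitochondrial fatty acid oxidation genes 8 fell (25.8%), 4 rose (12.9%) and 19 did not pass, against 22.0% lower and 19.3% higher among all genes. Cpt1a, its entry enzyme and the gene removed in the other genotype, had 119, 151, 156 and 190 CPM in stem cells, against 212, 170, 210 and 264 CPM in progenitors, ranges that overlapped (-0.48 ± 0.14, adjusted p = 0.00760, or 0.0541 without progenitor library d).

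Few proliferation genes passed. Of 62 tested S phase genes 6 fell and 3 rose, and of 69 G2 and mitosis genes 6 rose and none fell, shares below those among all genes. This depends on the setting: with limma on log2 TPM 32 S phase genes were higher and 3 lower, and 33 mitosis genes were higher and none lower. Rrm2, a subunit of ribonucleotide reductase, had 164, 125, 187 and 143 CPM in stem cells, against 335, 313, 286 and 266 CPM in progenitors (-0.95 ± 0.18, adjusted p = 0.000126). The S phase cyclin gene Ccne1 fell by 0.81 ± 0.19 and E2f2 by 1.83 ± 0.26. Cenpf, a mitotic kinetochore gene, had 48.7, 42.0, 52.8 and 60.8 CPM in stem cells, against 38.7, 35.3, 28.1 and 32.3 CPM in progenitors (0.59 ± 0.17, adjusted p = 0.00550). Its stem cell libraries lay above the progenitor libraries by a small margin, while those of Top2a (0.34 ± 0.13) overlapped. Top2a did not pass without stem cell library c or d or progenitor library b, c or d (adjusted p up to 0.129). Without stem cell library d 2 mitosis genes passed, without progenitor library b 3, and without stem cell library b 11. In the fit of the 8 libraries alone 14 S phase and 14 mitosis genes passed, and with the replicate block 16 and 19.

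Regulators of the first gap phase went both ways. Of 28 tested, 7 rose (25.0%) and 7 fell (25.0%), near the 19.3% and 22.0% of all genes. With limma on log2 TPM 12 were higher and 3 lower. The inhibitor gene Cdkn1a, p21, had 6.75, 7.50, 16.2 and 8.39 CPM in stem cells, against 47.7, 55.1, 91.7 and 55.6 CPM in progenitors (-2.67 ± 0.28, adjusted p = 1.55e-08). Cdkn2b, the inhibitor p15, had 0 to 1.31 CPM in stem cells and 17.7 to 43.4 CPM in progenitors (-5.48 ± 0.40, adjusted p = 9.58e-12). Cdk6, a kinase of the first gap phase, had 76.4, 109, 87.6 and 98.3 CPM in stem cells, against 39.4, 38.8, 32.6 and 28.8 CPM in progenitors (1.41 ± 0.18, adjusted p = 3.94e-07). Stem cell libraries were thus all lower for Cdkn1a and Cdkn2b and all higher for Cdk6, which holds for these genes and not for the list. Mycn fell by 1.34 ± 0.22, opposite to Myc.

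Transcription factors of intestinal identity were 11 higher and 9 lower of 38 tested, against 19.3% and 22.0% of all genes. Cdx1 and Cdx2, which set intestinal identity, did not pass (0.11 ± 0.14 and 0.19 ± 0.19). The 2 Hnf4 paralogs differed in direction. Hnf4a had 640, 738, 650 and 635 CPM in stem cells, against 569, 576, 546 and 519 CPM in progenitors (0.27 ± 0.09, adjusted p = 0.0119), and Hnf4g had 58.7, 66.3, 75.9 and 64.0 CPM in stem cells, against 161, 124, 202 and 154 CPM in progenitors (-1.27 ± 0.20, adjusted p = 1.05e-05). Neither gene's libraries overlapped, but Hnf4a did not pass without stem cell library b (adjusted p = 0.0596). Vdr, the vitamin D receptor, had 1856, 1319, 1907 and 1419 CPM in stem cells, against 886, 645, 874 and 688 CPM in progenitors (1.07 ± 0.17). The Hippo effector genes Yap1 and Wwtr1 rose by 0.74 ± 0.17 and 1.65 ± 0.18.

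The same contrast in libraries that this one does not use mostly kept the direction, while sizes varied. Of the 711 genes past 2-fold here, all 711 (100.0%) had the same sign in wild-type mice on the high-fat diet, 710 (99.9%) in Cpt1a-deficient mice on the control diet and 711 (100.0%) in those on the high-fat diet. The calls were made the same way for 698 (98.2%), 702 (98.7%) and 681 (95.8%) of them, and 672 were called the same way in all 4 comparisons. These 711 were picked for large changes. Of all 5414 genes called here, 2933 were called the same way in all 4 comparisons. Among all 13088 genes tested, 37.3%, 36.8% and 31.4% were called either way in the other 3. Sp5 differed by 2.58 ± 0.25 here, and by 2.61, 2.06 and 1.94 in those 3. Atoh1 differed by -3.89 ± 0.23 here and by -2.93, -3.14 and -2.82, while Gfi1 differed by -5.00 ± 0.46 here and by -3.08, -3.50 and -3.11. Dll3, a ligand-like Notch gene at 0 to 0.365 CPM in stem cells and 1.41 to 3.09 CPM in progenitors, differed by -3.91 ± 0.77 here and by -0.91, -1.63 and -2.26, of which the first did not pass (adjusted p = 0.201). Dnajc10 differed by -2.36 ± 0.14 here and by -2.08 in each of the 3.

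Whether the difference between the populations itself changed with diet or genotype was tested directly. No gene passed for control diet minus high-fat diet in wild type or for wild type minus Cpt1a-deficient on the control diet with edgeR, where 423 (3.23%) and 263 (2.01%) of the genes had an unadjusted p under 0.05. DESeq2 called 1 and 2, namely Gm2436 in both and Gm10031 for genotype, named here after these values were seen, and limma called 0 and 0. With each stem cell column and the progenitor column after it as a replicate block, 1 and 2 genes passed. Trp53inp1, a p53-induced autophagy gene, differed by 1.94 ± 0.36 on the control diet and by 0.68 on the high-fat diet, and the blocked difference was 1.26 ± 0.18 (adjusted p = 0.0405). Without the block that difference was 1.26 ± 0.51 and did not pass. Angptl4, a secreted lipase inhibitor induced by PPAR, had 90.3, 16.2, 92.5 and 31.3 CPM in stem cells, against 23.8, 6.92, 28.4 and 10.2 CPM in progenitors. High libraries in one population were high in the other, and without pairing the ranges overlapped (1.77 ± 0.60, adjusted p = 0.0205, and up to 0.0789 without stem cell library a or c or progenitor library b or d). The Angptl4 estimate in Cpt1a-deficient mice was 0.50. The wild-type estimate was larger by 1.21 ± 0.13 with the block (adjusted p = 0.000757), and by 1.27 ± 0.79 without it, which did not pass. Acot1, a PPAR-induced acyl-CoA thioesterase, had 67.0, 32.2, 56.8 and 40.7 CPM in stem cells, against 15.4, 10.7, 14.7 and 12.0 CPM in progenitors (1.90 ± 0.38). Its effect was 0.77 in Cpt1a-deficient mice, a difference of 1.13 ± 0.15 with the block (adjusted p = 0.0118). The unblocked difference of Acot1 was 1.13 ± 0.49 and did not pass.

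**Figure D4:**
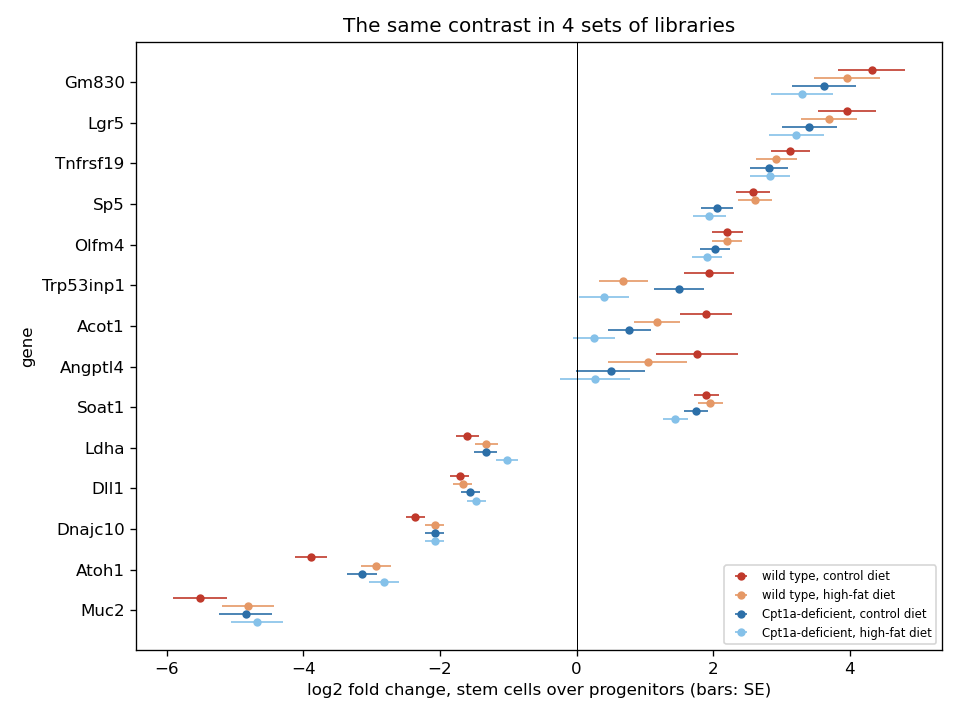
Log2 fold change of stem cells over progenitors with SE (horizontal) for 14 genes in 4 comparisons that share no library, namely wild type on the control diet, wild type on the high-fat diet, Cpt1a-deficient on the control diet and Cpt1a-deficient on the high-fat diet. The 14 genes were picked for display and checked to share their sign in the 4 comparisons, so that agreement is not a result.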

How the data were processed

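RNA was measured in 32 libraries of sorted intestinal epithelial cells in 8 groups of 4, of which 8 libraries were compared here. Per the labels' protocols, RNA was taken up in TRI reagent and polyadenylated RNA was prepared with a Clontech kit. The submitters' processing notes name STAR 2.5.3a, RSEM 1.3.0, SAMtools 1.3 and the genome build mm10, without roles or order; the annotation and the use of strand are not given in the sources used here. The authors deposited expected counts, which were rounded to whole numbers, and log2 values (log2 of TPM + 1); 2831 values had a count of 0 after rounding with a TPM above 0.

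Genes were tested on the counts with edgeR 4.0.16 in R 4.3.3 (TMM scaling, filterByExpr with a minimum count of 10, robust quasi-likelihood fit of 8 group means over the 32 libraries), with Benjamini-Hochberg adjustment over all 13088 genes tested and a threshold of 0.05. Changes beyond 2-fold were tested with glmTreat. SE is the log2 fold change divided by the square root of F. The alternatives were DESeq2 1.42.0, limma 3.58.1 on the log2 TPM values, DESeq2-style scaling in edgeR, no filter, the 8 libraries alone, leaving out each library, and a replicate block. Fits within libraries a and b and within c and d were added after seeing the data.

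Column names give neither a replicate number nor the sex, and the letters a to d follow the order of the columns. Each stem cell column was taken as paired with the progenitor column after it, since the deviations of adjacent columns from their group means correlated at 0.119 to 0.203. That was checked in the 8 libraries compared, and not in the others that the blocks for the diet and genotype differences also paired. The scripts were tested on simulated data. The members of the lists were chosen with earlier results of these data known. Genes were named by a fixed rule: check genes, every member of the regulator lists, in each other list at most 6 members, those of lowest adjusted p, members that moved against their list, and the 15 largest changes each way; 1 result under this rule is not reported here. Motif matches came from RefSeq promoters of GRCm38.p6, and gene positions from GENCODE M21. Counts of 0 were bounded at 3 counts per library, for counting error only.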

Additional observations from a re-analysis of the deposited data

Results flagged for a closer look

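Single libraries that lay far from the other 3 of their group were looked for in each gene named, by Dixon's ratio of a library's gap to the whole range, against the critical value for groups of 4. Of 370 groups of 4 libraries, over 185 genes, 20 met it, and chance gives about 1 in 20. Among stem cells, Btc had 27.8 CPM in library d against 22.8 to 23.6 CPM in the other 3, Gfi1 had 0.730 CPM in library a against 0.306 to 0.373 CPM in the other 3 and St3gal4 had 25.2 CPM in library d against 9.49 to 10.7 CPM in the other 3, the highest value in each case. Among stem cells, Mdh2 had 698 CPM in library a against 593 to 610 CPM in the other 3, Hnf4a had 738 CPM in library b against 635 to 650 CPM in the other 3 and Wwtr1 had 25.6 CPM in library d against 18.6 to 19.0 CPM in the other 3, the highest value in each case. Among stem cells, Erbb2 had 169 CPM in library a against 183 to 184 CPM in the other 3, Dll1 had 37.4 CPM in library a against 46.0 to 46.9 CPM in the other 3 and Fcgbp had 24.99 CPM in library a against 77.8 to 82.3 CPM in the other 3, the lowest value in each case. Among stem cells, mt-Nd1 had 1482 CPM in library a against 1933 to 1968 CPM in the other 3, the lowest value in that group. Among progenitors, Myc had 264 CPM in library a against 166 to 181 CPM in the other 3, Xbp1 had 780 CPM in library c against 555 to 571 CPM in the other 3 and Top2a had 270.0 CPM in library a against 232 to 236 CPM in the other 3, the highest value in each case. Among progenitors, Gm10031 had 0.546 CPM in library b against 0 in the other 3 and Reg4 had 361 CPM in library b against 193 to 202 CPM in the other 3, the highest value in each case. Among progenitors, Esam had 3.0 CPM in library d against 6.20 to 6.71 CPM in the other 3, Soat1 had 143 CPM in library d against 190 to 197 CPM in the other 3 and Nrarp had 25.3 CPM in library b against 34.6 to 36.5 CPM in the other 3, the lowest value in each case. Among progenitors, Slc7a9 had 49.5 CPM in library a against 70.8 to 74.7 CPM in the other 3 and Nod1 had 6.53 CPM in library c against 10.6 to 11.1 CPM in the other 3, the lowest value in each case.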

How the results depend on the processing

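Over the alternatives, the count of genes called stayed within 1.5 times of 5414, except within libraries a and b alone, where 2816 passed (3830 within c and d, a split chosen after seeing the data). Of the 5414, 5413 had the same sign within a and b and within c and d, and no gene passed for the difference between those pairs with edgeR (467 unadjusted). Leaving out 1 library gave 4695 to 5231 genes, 633 to 746 of them beyond 2-fold. Of the 160 genes named that passed, 20 lost their call when 1 library was left out. Among those 160 genes the only change of sign was that of Epcam, at 0.10 with limma on log2 TPM. With limma 15 complex I, 23 complex II to V, 12 mitochondrial ribosome, 9 tricarboxylic acid cycle, 35 S phase (32 higher), 33 mitosis (all higher) and 6 MHC class II genes passed, on a scale where all genes shifted by 0.28 against 0.02 here. In the fit of the 8 libraries alone 28 enteroendocrine, 14 S phase, 14 mitosis and 9 MHC class II genes passed. Mitosis genes ranged from 2 to 11 when 1 library was left out. The other counts of list members moved by at most 1.5 times in total, but with limma on log2 TPM the directions of some changed. There 6 Notch genes were higher and 3 lower, and 8 fatty acid oxidation genes were higher and 2 lower. Of the first gap phase list 12 were higher and 3 lower, and of the intestinal identity list 18 and 4. The cause of the shifts was not tested.

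With each stem cell column and the progenitor column after it as a replicate block, 5563 genes passed, 10 of the Paneth list, 29 enteroendocrine, 16 S phase, 19 mitosis and 9 MHC class II. For the differences the block called 1 gene by diet and 2 by genotype, as did DESeq2 with 1 and 2, against 0 and 0 without it. The block changed no other count of calls by over 1.5 times. At this depth genes below the count minimum were not tested.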

Other observations

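Genes that present antigen to T cells on MHC class II stood higher in every stem cell library for 8 of 9 tested, against 17.6% of all genes, although only 2 passed as higher and 1 as lower. In the fit of the 8 libraries alone, and with the replicate block, 8 passed as higher and 1 as lower, and with limma 6 as higher. Ciita, the factor that turns these genes on, had 18.6, 21.1, 16.1 and 21.5 CPM in stem cells, against 6.18, 9.46, 3.59 and 8.54 CPM in progenitors (log2 fold change 1.44 ± 0.33, edgeR adjusted p = 0.00081). The other that rose was H2-Eb1 (1.11 ± 0.44, adjusted p = 0.0458, and up to 0.113 when any library but progenitor b was left out), and Ifi30, a lysosomal thiol reductase, fell by 0.71 ± 0.18. Ptprc was at most 0.187 CPM in stem cells and 0 in progenitors.

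Lipid uptake genes were mostly lower, with 13 of 20 tested lower (65.0%) and 5 higher (25.0%), against 22.0% and 19.3% of all genes. The fatty acid transport proteins Slc27a2 and Slc27a1 rose by 1.33 ± 0.13 and 1.49 ± 0.17. Npc1l1, which takes up cholesterol from the gut lumen, had 17.5, 28.0, 12.3 and 13.2 CPM in stem cells, against 89.9, 97.4, 100.5 and 85.4 CPM in progenitors (-2.38 ± 0.20, adjusted p = 2.75e-10). Of 25 tested defence genes 5 rose and 11 fell, against 19.3% and 22.0% of all genes, so the share that rose was that of all genes. Reg4, a lectin of secretory cells, fell by 3.92 ± 0.37, while Nlrp6 and Nod1, sensors of microbial products, rose by 0.84 ± 0.12 and 1.07 ± 0.24.

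Libraries a and b stood apart from c and d in both populations on the second principal component, which held 9.46% of the variance. Xist was at 49.9 to 74.1 CPM in a and b and at most 0.560 CPM in c and d, and Ddx3y was at most 0.153 CPM in a and b and 54.8 to 82.6 CPM in c and d. These genes, and the next, were chosen after their values were seen. Smad4, the common mediator of BMP signals, had 37.4, 192, 406 and 352 CPM in stem cells, against 35.3, 81.3, 258 and 252 CPM in progenitors, so its level varied more between libraries than between populations. It did not pass, except with the replicate block (0.67 ± 0.18, adjusted p = 0.0221).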
